A study of Mus musculus with 12 samples.

Results

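The comparison covers testis RNA from aged male mice given a blueberry extract at the highest dose of the study, 200 mg/kg per day, against mice given its lowest dose, 50 mg/kg per day. Its members are the 6 libraries whose labels give either dose, 3 for 200 mg/kg and 3 for 50 mg/kg, of 12 libraries in all. The other 6, from 100 mg/kg and saline mice, enter no test here and are used for context. All mice were wild-type males of the outbred ICR stock, aged 8 months at the start per the study's design and 9 months at collection per the labels, and received the extract or saline daily by gavage, so that the 50 mg/kg mice are themselves treated animals and not untreated controls. Poly-A RNA came from frozen whole testis. The labels do not say that the libraries of a group came from separate mice. A p-value here therefore tells only how these libraries varied, and that variation may be technical. Its common coefficient, beyond counting noise, was 3.44% in the 6 libraries. Without that label, differences between individual outbred mice cannot be told apart from those of dose.

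The testis makes sperm inside seminiferous tubules, where germ cells pass through meiosis and then reshape into spermatids while Sertoli cells feed and enclose them. Between the tubules lie Leydig cells, which make testosterone, and macrophages, the most common resident immune cells of the organ, some of which show antigens to T cells on MHC class II molecules. The class II chains, the invariant chain that guides them and the peptide exchanger DM are made from genes that share short promoter elements, the X and Y boxes, and are switched on together by the transactivator CIITA. The series' title names age-related sperm motility and inflammation as its subject, and the groups of genes below were ordered accordingly: immune genes, steroid-making and supporting cells, germ cells, the sperm tail and its energy supply, and general cell maintenance.

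Libraries held 14382378 to 17782695 counts at 200 mg/kg and 15533118 to 19118265 counts at 50 mg/kg, and 18071 to 18344 against 18182 to 18417 genes with a count. The tissue label fitted the spermatid and spermatocyte genes: Prm1 (protamine 1) lay at 2553 to 2932 CPM (read counts divided by the library total and multiplied by a fixed factor, with the totals scaled over the 6 libraries) at 200 mg/kg and at 2868 to 3140 CPM at 50 mg/kg, and Ldhc (the germ-cell lactate dehydrogenase) at 4339 to 4424 CPM and 4274 to 4490 CPM. Insl3, usually a leading Leydig cell transcript, was nearly absent at 0.522 to 0.620 CPM and 0.386 to 0.933 CPM, and shares exons with Jak3 in the annotation. In the 200 mg/kg libraries, the rank correlation of a gene's level (relative to its mean over the 12 libraries) with its exon length was 0.333 to 0.347. In the 50 mg/kg libraries it was 0.0985 in library 1, 0.292 in library 2 and 0.283 in library 3, so that library 1 stood apart. It was -0.502 to -0.41 in the 3 libraries at 100 mg/kg, against 0.0985 to 0.347 in the other 9 libraries, so that the 100 mg/kg group stood apart from all others. Across 15262 genes, the log2 fold change between the doses had a rank correlation of 0.142 with exon length, and its part in the results was not tested beyond a fit with a length term.

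Of 15289 genes tested, 1563 differed between 200 and 50 mg/kg at an adjusted p under 0.05 (edgeR quasi-likelihood test, Benjamini-Hochberg), which is 10.2%. At 200 mg/kg 820 genes were higher (5.36% of those tested) and 743 were lower (4.86%). The libraries of the groups did not overlap in 3994 genes (26.1% of those tested), among them 1521 of the 1563 called. Non-overlap therefore adds little to a call. Most differences were small: 1281 of the 1563 genes, or 82%, changed by less than 1.5-fold, and 120 changed by at least 2-fold (0.785% of those tested), 59 of them higher and 61 lower. The count fell to 984 without 200 mg/kg library 1 and to 991 without 200 mg/kg library 3, and was 1626 without 50 mg/kg library 1, the library that stood apart by gene length. In a single fit of all 4 groups, 792 genes separated 200 from 50 mg/kg, against 8069 for 100 over 50 mg/kg and 8312 for 200 over 100 mg/kg. The median absolute log2 fold change over 15682 genes was 0.101 for 200 over 50 mg/kg in that fit, against 0.289 and 0.299 for the other pairs, which share libraries with it. The part of the 100 mg/kg libraries' length correlations in the counts of those pairs was not tested.

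**Figure D1:**
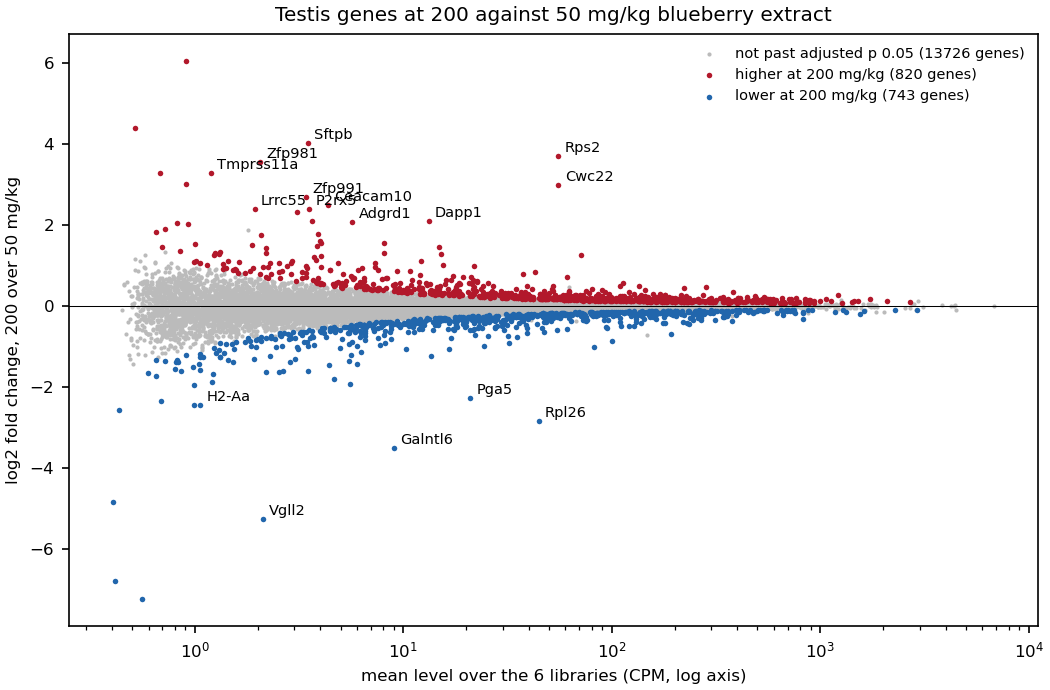
Each point is 1 of the 15289 genes tested, with its mean level over the 6 libraries in CPM on a log axis against its log2 fold change, 200 over 50 mg/kg. Red points (820) were higher and blue points (743) lower at 200 mg/kg at an adjusted p under 0.05, and the symbols mark genes named in the text whose log2 fold change was beyond 2 in either direction. Most called genes lie close to 0, with Vgll2, Galntl6, Rpl26 and Pga5 far below and Rps2, Cwc22 and Sftpb far above.

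MHC class II genes were lower at 200 mg/kg, and of 42 gene lists antigen presentation had the largest share of members lower. Of its 18 tested genes, 8 fell at 200 mg/kg and 1 rose, a share of 44.4% lower against the 4.86% of all genes, and the list's median log2 fold change was -0.339 against -0.000629 for all genes. The 8 were the class II chains H2-Aa, H2-Ab1 and H2-Eb1, the DM chain H2-DMb1, the invariant chain Cd74, the class I light chain B2m, the class I heavy chain H2-D1 and the class I transactivator Nlrc5. The class I heavy chain H2-K1 rose. The same counts, 8 lower and 1 higher, came from DESeq2, limma, the fits of 4 and of 3 groups, the fit with a length term and the fit without 50 mg/kg library 1. H2 genes are a family of close relatives, so reads can be split between them and the value of any single member is uncertain. The 42 lists and their members were chosen with earlier results of these data known, so the rank of antigen presentation is a description.

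The 250 bases before the start are shown for H2-Aa, H2-Eb1 and H2-DMb1, which fell and belong to a group known to share promoter elements, and for H2-DMa, the other DM chain, which did not pass the test. The stretches were read from RefSeq's mouse promoter table (build GRCm38.p6), which holds a pair of starts for H2-DMa, in the direction of transcription, and the motifs were chosen after the values were seen. Capitals mark the Y box (CTGATTGG) in H2-Aa and H2-Eb1, and its core ATTGG in H2-DMb1 and in the second stretch of H2-DMa, on the strand shown.
H2-Aa, chr17:34287824-34288073, minus strand: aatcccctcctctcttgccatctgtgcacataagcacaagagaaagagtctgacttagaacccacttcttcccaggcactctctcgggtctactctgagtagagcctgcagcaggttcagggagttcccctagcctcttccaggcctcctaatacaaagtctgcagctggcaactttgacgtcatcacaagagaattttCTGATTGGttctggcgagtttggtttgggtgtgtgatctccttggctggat
H2-Eb1, chr17:34305617-34305866, plus strand: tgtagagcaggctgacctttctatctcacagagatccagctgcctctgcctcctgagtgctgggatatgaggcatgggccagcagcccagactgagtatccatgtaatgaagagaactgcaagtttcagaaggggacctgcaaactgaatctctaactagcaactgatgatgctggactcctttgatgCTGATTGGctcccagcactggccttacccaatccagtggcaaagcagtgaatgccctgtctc
H2-DMb1, chr17:34152941-34153190, plus strand: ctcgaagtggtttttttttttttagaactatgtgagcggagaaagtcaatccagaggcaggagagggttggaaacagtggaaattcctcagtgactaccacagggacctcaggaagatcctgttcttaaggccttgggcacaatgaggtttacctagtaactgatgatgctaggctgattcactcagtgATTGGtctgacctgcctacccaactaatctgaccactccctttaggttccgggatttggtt
H2-DMa, chr17:34122582-34122831, plus strand: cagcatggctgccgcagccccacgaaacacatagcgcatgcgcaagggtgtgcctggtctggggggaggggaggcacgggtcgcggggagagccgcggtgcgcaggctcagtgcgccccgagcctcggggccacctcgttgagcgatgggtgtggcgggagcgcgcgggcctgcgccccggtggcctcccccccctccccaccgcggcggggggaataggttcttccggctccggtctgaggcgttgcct
H2-DMa, chr17:34125268-34125517, plus strand: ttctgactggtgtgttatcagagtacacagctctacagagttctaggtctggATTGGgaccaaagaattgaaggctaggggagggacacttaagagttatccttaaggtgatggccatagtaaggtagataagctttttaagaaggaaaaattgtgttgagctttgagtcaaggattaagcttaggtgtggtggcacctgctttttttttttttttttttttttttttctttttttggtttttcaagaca

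The Y box began 51 bases before the start in H2-Aa and 62 bases before it in H2-Eb1. The ATTGG core began 61 bases before the start in H2-DMb1 and 198 bases before it in the second stretch of H2-DMa, and the first held neither motif. Searched on both strands in windows from 250 bases before to 50 bases after the start, CTGATTGG occurred in 4.1% of 32851 promoters of 27025 genes, ATTGG, which is part of it, in 37.4%. In the same windows H2-K1, which rose, held CTGATTGG at each of its starts, on the strand opposite to transcription. H2-D1, which fell, held it on that strand too, and B2m, which fell, held ATTGG alone. The Y box was thus not confined to genes that fell. The X box was not searched. A match describes the letters only. H2-Ab1, Cd74 and Nlrc5 are named without a sequence.

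Cd74 had 1.57, 2.03 and 2.59 CPM in the 200 mg/kg libraries, against 6.94, 6.90 and 7.83 CPM in the 50 mg/kg libraries. H2-Ab1 had 2.09, 2.17 and 2.76 CPM at 200 mg/kg, against 6.75, 6.41 and 6.32 CPM at 50 mg/kg. H2-Eb1 had 1.80, 1.40 and 1.58 CPM at 200 mg/kg, against 3.79, 3.73 and 4.80 CPM at 50 mg/kg. In each of the 3 genes every 200 mg/kg library lay below every 50 mg/kg library. The log2 fold change was -1.81 ± 0.18 for Cd74 (SE, edgeR adjusted p = 3.43e-10), -1.46 ± 0.17 for H2-Ab1 (3.1e-08) and -1.37 ± 0.21 for H2-Eb1 (1e-05). H2-Aa (chr17:34282744-34287823, GRCm38) had 0.522, 0.349 and 0.113 CPM at 200 mg/kg, against 1.93, 1.74 and 1.72 CPM at 50 mg/kg, which is 16 against 91 counts in all. Its log2 fold change of -2.44 ± 0.39 was the largest of the list, on few counts (edgeR adjusted p = 1.52e-05). H2-DMb1 had 25 counts in all at 200 mg/kg, against 96 at 50 mg/kg, and a log2 fold change of -1.87 ± 0.38 (edgeR adjusted p = 0.000507).

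Among the class I genes, B2m had 31.3, 29.1 and 31.1 CPM at 200 mg/kg, against 50.3, 43.6 and 50.9 CPM at 50 mg/kg, a log2 fold change of -0.66 ± 0.06 (edgeR adjusted p = 2.5e-10). Nlrc5 averaged 6.09 ± 0.84 CPM at 200 mg/kg and 10.1 ± 0.71 CPM at 50 mg/kg (SD, n = 3 each), and H2-D1 averaged 37.0 ± 2.2 CPM and 50.2 ± 5.5 CPM. H2-K1 went the other way, with 25.1 ± 0.61 CPM at 200 mg/kg and 19.5 ± 1.87 CPM at 50 mg/kg. The peptide loading gene Tapbp, at 72.3 and 73.5 CPM, and the DM chain H2-DMa, at 7.65 and 7.64 CPM, did not pass. CIITA's own gene had 10 counts in the 6 libraries together and was not tested.

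Macrophage markers moved the same way. Of 21 tested, 6 fell at 200 mg/kg and none rose, 28.6% against 4.86% of all genes, and 20 of 21 had a log2 fold change below 0, with a median of -0.300. Lyz2 (lysozyme) had 27.2, 23.8 and 26.7 CPM at 200 mg/kg, against 36.8, 32.6 and 34.6 CPM at 50 mg/kg. Fcgr3, an Fc receptor for antibody, had 17.2, 17.4 and 22.8 CPM at 200 mg/kg, against 27.4, 26.9 and 26.8 CPM at 50 mg/kg. Cx3cr1, the fractalkine receptor, had 4.58, 4.19 and 4.51 CPM at 200 mg/kg, against 6.23, 7.40 and 6.53 CPM at 50 mg/kg. The groups did not overlap in any of the 3, as in 1521 of the 1563 genes called. The log2 fold changes were -0.42 ± 0.07 for Lyz2, -0.49 ± 0.09 for Fcgr3 and -0.60 ± 0.15 for Cx3cr1 (SE, edgeR adjusted p = 3.7e-05, 6.8e-05 and 0.0052).

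Ctss, a lysosomal protease that trims the invariant chain, Mrc1 (the mannose receptor) and C1qc, a chain of complement C1q, were the other 3 that fell. Adgre1, which encodes the classical macrophage antigen F4/80, overlapped between the groups at 3.65, 2.94 and 2.65 CPM against 3.66, 3.17 and 3.34 CPM (edgeR adjusted p = 0.75). Aif1 alone, which did not differ at 375 CPM and 369 CPM, held most of the list's sum. Without it the markers summed to 133.9 to 144.8 CPM at 200 mg/kg and 170.6 to 184.2 CPM at 50 mg/kg. No tested marker was at 0 in either group, and the part of the macrophage markers in the fall of class II was not tested. In bulk tissue, fewer macrophages and less RNA per macrophage cannot be told apart. DESeq2 called 3 of the list, against 6 here, and the call of Ctss was also lost without 200 mg/kg library 3.

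**Figure D2:**
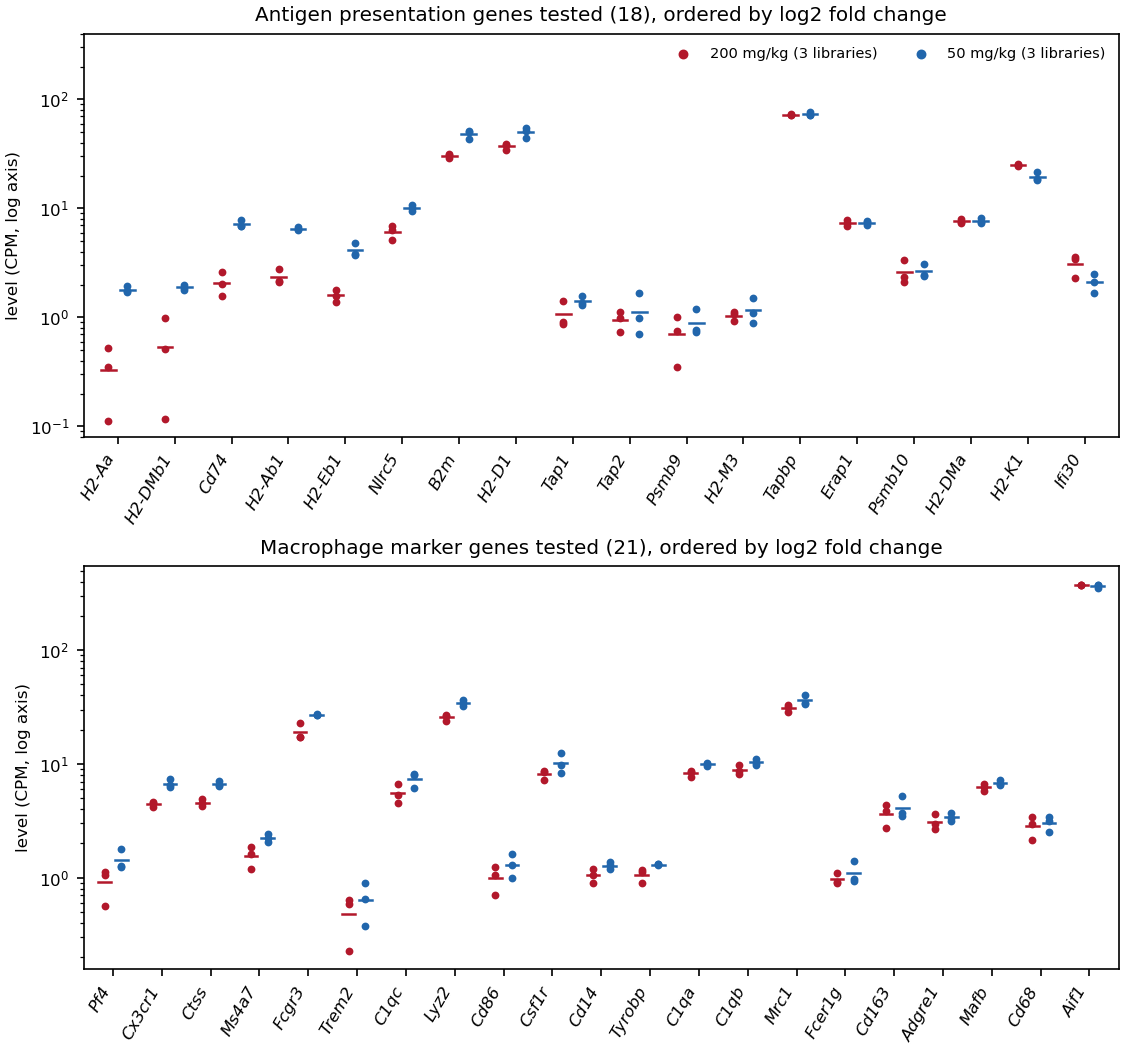
Level in CPM on a log axis of each tested gene of antigen presentation (upper panel) and each tested macrophage marker (lower panel), ordered by log2 fold change, with 3 libraries at 200 mg/kg in red and 3 at 50 mg/kg in blue and a bar at each mean. The class II genes H2-Aa to H2-Eb1 at the left of the upper panel separate by the widest gaps, and 20 of the 21 macrophage markers have a log2 fold change below 0.

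Complement genes, which tag particles for uptake, fell in 5 of 24 cases and rose in none, 20.8% against 4.86% of all genes. The list shares C1qa, C1qb and C1qc with the macrophage markers. The fall of C1qc, whose libraries overlapped between the groups, is counted in both lists. C3, the central component, had 5.63, 5.73 and 4.45 CPM at 200 mg/kg, against 8.36, 11.8 and 10.3 CPM at 50 mg/kg. Its log2 fold change was -0.95 ± 0.14 (edgeR adjusted p = 2.7e-06) and held in every alternative. Serping1, the inhibitor of C1, fell by 0.33 on the log2 scale and C4b by 0.28, and C4b has a near copy. DESeq2 called 2 of the list, against 5 here. The chemokine Ccl8, which draws monocytes, had 1.86, 0.839 and 0.958 CPM at 200 mg/kg, against 3.99, 3.67 and 3.86 CPM at 50 mg/kg, a log2 fold change of -1.63 ± 0.24 (edgeR adjusted p = 3.86e-06).

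Genes of NF-kB and cytokine signalling gave little difference: 1 of 36 fell and none rose, below the 10.2% of all genes. The 1 was Nfkb1, which encodes the p50 precursor, with 13.8, 11.7 and 14.2 CPM at 200 mg/kg against 15.6, 16.5 and 16.4 CPM at 50 mg/kg. Its log2 fold change of -0.29 ± 0.10 was close to the threshold (edgeR adjusted p = 0.0457) and its call was lost in 9 of 16 alternatives. Rela, the p65 subunit, lay at 36.4, 35.6 and 34.3 CPM at 200 mg/kg and 36.6, 30.5 and 33.5 CPM at 50 mg/kg, and the ranges overlapped. Il1b had 2.15, 1.40 and 1.47 CPM at 200 mg/kg, against 1.09, 1.37 and 1.10 CPM at 50 mg/kg, and did not pass (edgeR adjusted p = 0.32). Tlr4, the receptor for bacterial lipopolysaccharide, had a log2 fold change of -1.11 ± 0.40 (edgeR adjusted p = 0.067), and Tnfrsf1b, a receptor for tumour necrosis factor, of 0.28 ± 0.22. The cytokine genes Tnf and Il6 had 2 and 0 counts in the 6 libraries together, Nlrp3 had 15 and Ccl2 had 5, so these could not be compared at this depth. None of 29 interferon response genes passed in edgeR (4 had an unadjusted p under 0.05), none passed in limma, and DESeq2 called 1 lower.

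Lymphocyte genes were low and mixed, with 3 of 12 tested higher and 2 lower, 41.7% in either direction against 10.2% of all genes. Crtam, a surface protein of activated T cells that is also expressed elsewhere, had 24.1, 20.1 and 22.8 CPM at 200 mg/kg, against 15.2 CPM in each 50 mg/kg library. Rag1, a recombinase of developing lymphocytes, had 5.92, 5.59 and 6.60 CPM at 200 mg/kg, against 1.41, 2.18 and 1.67 CPM at 50 mg/kg, and Cd8b1 had a log2 fold change of 1.04 ± 0.30. Ptprc, which marks all white blood cells as CD45, fell, with 1.16, 0.839 and 0.451 CPM at 200 mg/kg against 1.99, 2.67 and 1.57 CPM at 50 mg/kg. Rag1 shares exons with B230118H07Rik, so its count may hold reads of that gene. Jchain, the joining chain of antibodies, fell by 1.03 on the log2 scale (edgeR adjusted p = 0.027), and the call was lost without any 1 of the 3 libraries at 200 mg/kg. Of the 27 lymphocyte genes matched, 15 were too low to test, and Cxcl13 had 41 counts in all.

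Among Leydig cell genes, 3 of 26 rose and 3 fell, 11.5% in each direction against 5.36% of all genes higher and 4.86% lower, and they act at different steps of steroid synthesis or its control. Star, which carries cholesterol into mitochondria, had 104, 106 and 109 CPM at 200 mg/kg, against 145.1, 150.4 and 153.1 CPM at 50 mg/kg. Lhcgr, the receptor for luteinizing hormone, had 14.68, 15.03 and 15.28 CPM at 200 mg/kg, against 22.6, 20.6 and 19.1 CPM at 50 mg/kg. Both fell without overlap, Star by 0.50 ± 0.04 and Lhcgr by 0.46 ± 0.09 on the log2 scale (edgeR adjusted p = 1.4e-12 and 0.00021). Hsd3b1, which makes progesterone from pregnenolone, fell by 0.18 on the log2 scale. Cyp11a1, the side-chain cleavage enzyme, rose, with 114, 125 and 119 CPM at 200 mg/kg against 106, 97.6 and 103 CPM at 50 mg/kg, a log2 fold change of 0.22 ± 0.04 (edgeR adjusted p = 0.00036). Cyp19a1, which turns androgens into estrogens, averaged 10.7 ± 0.85 CPM at 200 mg/kg and 7.48 ± 0.90 CPM at 50 mg/kg and also rose, as did Hsd3b6 with 67.1 ± 1.6 CPM and 58.8 ± 1.1 CPM (SD, n = 3 each). Cyp17a1 and Hsd17b3, the last steps to testosterone, did not pass, with log2 fold changes of 0.05 ± 0.03 and 0.03 ± 0.05. The list's median was 0.0163. None of 26 cholesterol synthesis genes passed in edgeR (7 had an unadjusted p under 0.05) or DESeq2, and limma called 2 lower.

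Of 32 Sertoli cell genes 5 fell and none rose, 15.6% against 4.86% of all genes. Kitl, the ligand that germ cells sense through the receptor Kit, had 16.6, 18.9 and 17.7 CPM at 200 mg/kg, against 21.6, 27.4 and 28.9 CPM at 50 mg/kg, a log2 fold change of -0.56 ± 0.09 (edgeR adjusted p = 2.1e-05). Cst12, a cystatin, had 42.0, 42.1 and 40.8 CPM at 200 mg/kg, against 57.1, 55.8 and 52.0 CPM at 50 mg/kg, a log2 fold change of -0.40 ± 0.06. Clu, which encodes the secreted chaperone clusterin, fell by 0.16 on the log2 scale, the protease gene Ctsl by 0.18, and Trf, which encodes transferrin, by 0.46. The sum of the list was 1839 to 1864 CPM at 200 mg/kg and 1961 to 2040 CPM at 50 mg/kg, without overlap. Junction genes of the blood-testis barrier gave 2 of 27 higher and 2 lower, 14.8% against 10.2% of all genes in either direction: Cdh2, or N-cadherin, had a log2 fold change of 0.29 ± 0.05 and Itga6, a laminin receptor chain, of -0.31 ± 0.09. Cldn11, the main claudin of the barrier, had 61.8, 56.6 and 56.9 CPM at 200 mg/kg and 63.1, 63.5 and 62.2 CPM at 50 mg/kg and did not pass.

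Counts for the other cell types of the tissue lay near the share of all genes. Among fibroblast and matrix genes 2 of 36 rose and 2 fell, 11.1% against 10.2% of all genes. Sparc, a matrix glycoprotein, had 232, 234 and 233 CPM at 200 mg/kg, against 292, 274 and 288 CPM at 50 mg/kg (log2 fold change -0.29 ± 0.03, edgeR adjusted p = 1.4e-08). Of 18 endothelial genes 1 fell (5.56%) and of 13 smooth muscle genes 1 (7.69%), against 4.86% of all genes, and none of 4 red blood cell genes passed in edgeR (1 had an unadjusted p under 0.05), DESeq2 or limma. Most genes of the epididymis and accessory glands were too low to test (26 of 33). Of the 7 tested, Ceacam10, an adhesion glycoprotein also known from the seminal vesicle, had 7.83, 6.78 and 7.61 CPM at 200 mg/kg, against 1.48, 1.18 and 1.25 CPM at 50 mg/kg, and Lcn2, an iron-carrier binding lipocalin, had 199, 191 and 201 CPM, against 278, 249 and 261 CPM. The level of these genes was not used to trace cells.

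In the germ line, meiotic genes moved in both directions. Of 49 tested 8 fell at 200 mg/kg, 16.3% against 4.86% of all genes, and 5 rose, 10.2% against 5.36%. Those that fell included Sycp1, Sycp2 and Sycp3, proteins of the synaptonemal complex, the zipper that pairs chromosomes. Sycp1 had 123, 134 and 124 CPM at 200 mg/kg, against 158.8, 157.8 and 159.7 CPM at 50 mg/kg. Sycp2 had 237.6, 248.2 and 240.4 CPM at 200 mg/kg, against 274, 312 and 302 CPM at 50 mg/kg. Sycp3 had 68.2, 62.6 and 65.4 CPM at 200 mg/kg, against 82.5, 85.3 and 79.9 CPM at 50 mg/kg. All 3 fell without overlap, by 0.32 ± 0.04, 0.29 ± 0.04 and 0.33 ± 0.05 on the log2 scale (SE, edgeR adjusted p = 5e-08, 2.8e-07 and 3e-06). Sycp3 overlaps Chpt1 on the opposite strand.

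Meioc, which keeps germ cells in an extended meiotic prophase, had 179, 201 and 193 CPM at 200 mg/kg, against 235, 256 and 252 CPM at 50 mg/kg, a log2 fold change of -0.38 ± 0.04 (edgeR adjusted p = 2.4e-09). Hormad1, a chromosome axis protein, averaged 139 ± 0.43 CPM at 200 mg/kg and 168 ± 9.3 CPM at 50 mg/kg, and Smc1b, a meiotic cohesin, 188 ± 4.7 CPM and 220.2 ± 9.9 CPM (SD, n = 3 each). Members that rose were the cohesin subunit Stag3, with a log2 fold change of 0.14, the synaptonemal gene Syce2 with 0.22, Spo11, which cuts DNA to start recombination, with 0.23, Hsf2bp with 0.22, and Piwil1 with 0.11. The calls of Meioc, Sycp1, Sycp2 and Sycp3 held in all 16 alternatives. The sum of the list was 4918 to 4993 CPM at 200 mg/kg and 5108 to 5163 CPM at 50 mg/kg.

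Before meiosis, 1 of 18 spermatogonial genes rose and 1 fell, 5.56% in each direction, near the 5.36% and 4.86% of all genes. Kit, the receptor of differentiating spermatogonia, had 43.9, 50.9 and 47.6 CPM at 200 mg/kg, against 36.3, 34.9 and 34.9 CPM at 50 mg/kg, and rose by a log2 fold change of 0.42 ± 0.06 (edgeR adjusted p = 2.9e-06), while its ligand Kitl was lower. Id4, a gene of stem-like spermatogonia, fell by 0.20 on the log2 scale near the threshold (edgeR adjusted p = 0.047), a call lost in 9 of 16 alternatives. In the piRNA pathway, whose small RNAs silence transposons, 3 of 26 rose and 1 fell, 15.4% against 10.2% of all genes in either direction, with Tdrd6 at a log2 fold change of 0.14 ± 0.03. None of these 4 calls held in the fit of all 4 groups. Among them is Piwil1, which is also counted among the meiotic genes that rose.

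After meiosis, 3 of 20 genes that exchange histones for protamines rose and none fell, 15% against 5.36% of all genes. Chd5, a chromatin remodeller of this step, had 517, 542 and 518 CPM at 200 mg/kg, against 421, 455 and 454 CPM at 50 mg/kg. Cdyl, a reader of histone marks, had 438.9, 429.6 and 427.3 CPM at 200 mg/kg, against 379.5, 372.9 and 370.3 CPM at 50 mg/kg. These 2 rose by log2 fold changes of 0.24 ± 0.03 and 0.21 ± 0.03 (edgeR adjusted p = 1.5e-07 and 1.2e-06), and Psme4, the proteasome activator that removes acetylated histones, by 0.22 ± 0.04. The packaging proteins themselves did not pass: Prm1 had a log2 fold change of -0.10 ± 0.07 and Tnp1, transition protein 1, of -0.17 ± 0.07. With the length term 6 of the list rose.

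Genes of the acrosome and of sperm-egg fusion fell in 9 of 38 cases and rose in none, 23.7% against 4.86% of all genes. Cylc2, a cylicin of the sperm head cytoskeleton, had 307, 317 and 312 CPM at 200 mg/kg, against 369, 379 and 367 CPM at 50 mg/kg, a log2 fold change of -0.25 ± 0.03 (edgeR adjusted p = 3.9e-08). Spaca1, an acrosomal membrane protein, fell by 0.18 on the log2 scale, and Tmem95, which sperm need to fuse with the egg, fell by 0.35. In the fit of all 4 groups 4 of the list fell and in that of the 3 dose groups 2. Among the ADAM surface proteins and their partners 3 of 28 rose and 6 fell, 32.1% against 10.2% of all genes in either direction, led by Adam26b, with 16.4, 15.2 and 13.2 CPM at 200 mg/kg against 23.01, 19.72 and 20.1 CPM at 50 mg/kg.

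**Figure D3:**
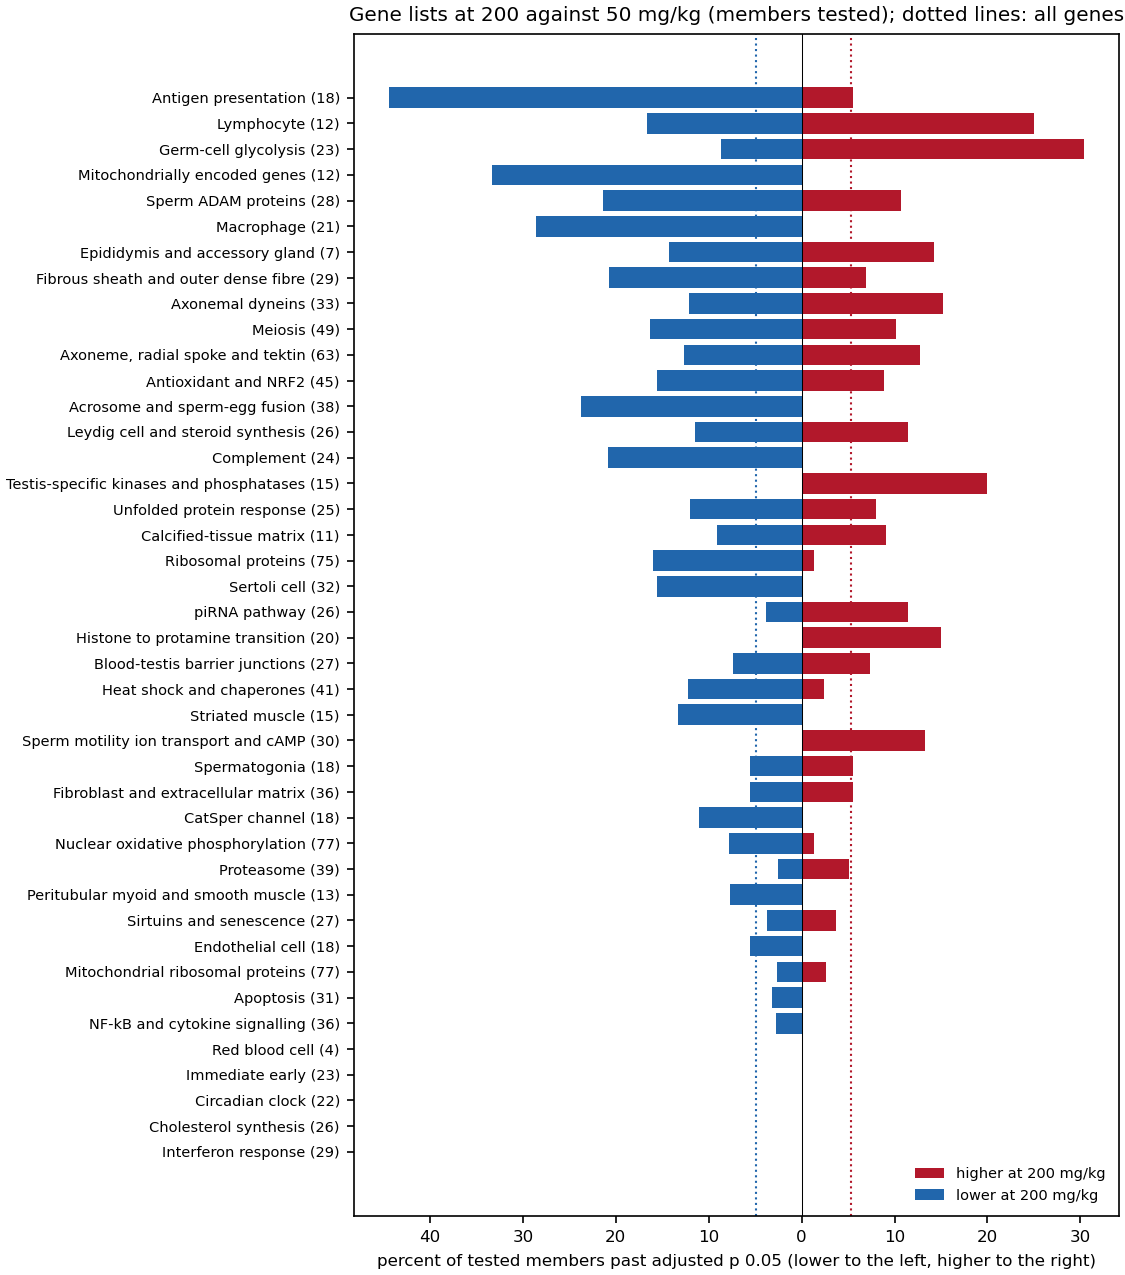
For each of 42 gene lists, the bar to the right gives the percent of tested members that were higher at 200 mg/kg and the bar to the left the percent that were lower, at an adjusted p under 0.05, with the number tested in brackets. Dotted lines give the same over all 15289 genes, 5.36% higher and 4.86% lower. Antigen presentation reaches furthest to the left (44.4%) and germ-cell glycolysis furthest to the right (30.4%). The lists were chosen with earlier results of these data known.

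Genes of the sperm tail moved in both directions, mostly by small amounts. Among axonemal dyneins, the motors of the beating tail, 5 of 33 rose and 4 fell, 27.3% against 10.2% of all genes in either direction. Dnah17, an outer arm heavy chain, had 437, 452 and 442 CPM at 200 mg/kg, against 359.7, 401.1 and 390.1 CPM at 50 mg/kg, and Dnah6 had 154, 151 and 147 CPM, against 112, 136 and 127 CPM. Their log2 fold changes were 0.21 ± 0.03 and 0.27 ± 0.05 (edgeR adjusted p = 1e-05 and 0.00041), and in both genes 50 mg/kg library 1 was the lowest of the 6. Dnah1, an inner arm heavy chain, rose by a log2 fold change of 0.15 ± 0.04. These 3 calls were lost in the fits of 4 and of 3 groups, where 1 dynein gene rose and 1 fell. The light chain Dynlt1b fell further, with 75.7, 65.9 and 72.5 CPM at 200 mg/kg against 135, 128 and 125 CPM at 50 mg/kg (log2 fold change -0.86 ± 0.05, edgeR adjusted p = 7.3e-18). Dynlt1b belongs to a cluster of near-identical copies, so its value is uncertain. Dnah11, another heavy chain, rose by a log2 fold change of 0.82 (edgeR adjusted p = 0.0027), a call that held in all 16 alternatives.

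In the rest of the axoneme, 8 of 63 genes rose and 8 fell, 12.7% in each direction against 5.36% of all genes higher and 4.86% lower. In the fit of all 4 groups 4 rose and 4 fell, and in that of the 3 dose groups 2 rose and 3 fell. Rsph1, a radial spoke head protein, had 1313.8, 1356.9 and 1349.8 CPM at 200 mg/kg, against 1116, 1111 and 1066 CPM at 50 mg/kg, a log2 fold change of 0.29 ± 0.03 (edgeR adjusted p = 1.2e-11). Cfap70, a cilia and flagella protein, rose by 0.27 ± 0.03, while Cfap53 changed by -0.26 ± 0.04 and Tekt3, a tektin, by -0.21 ± 0.03 on the log2 scale. In the fibrous sheath and outer dense fibres 2 of 29 rose and 6 fell, 6.9% against 5.36% of all genes and 20.7% against 4.86%. That balance depended on the fit: without 50 mg/kg library 1, the library that stood apart by gene length, 5 rose and 3 fell, with the length term 6 rose and 4 fell, and with limma 5 rose and 4 fell. DESeq2 gave 2 higher and 2 lower, the fit of all 4 groups none higher and 2 lower, and that of the 3 dose groups none higher and 1 lower. Fsip2, a large sheath protein, had 317, 323 and 321 CPM at 200 mg/kg, against 357, 396 and 379 CPM at 50 mg/kg. Akap3, a sheath anchor for protein kinase A, rose by a log2 fold change of 0.12 ± 0.02, and Akap4, the main sheath protein, at 2776 to 2833 CPM and 2689.5 to 2725.4 CPM, had one of 0.05 ± 0.02 and did not pass.

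Genes listed under germ-cell glycolysis and under ion transport and cAMP signalling in sperm mostly rose where they passed the test. Those of the CatSper channel that passed were lower. Of 23 tested genes listed under germ-cell glycolysis, by which sperm fuel the tail, 7 rose and 2 fell, 30.4% higher against 5.36% of all genes. The list is wider than glycolysis. Of the 7 that rose, Hk1, Gpi1, Pfkm and Pfkp encode enzymes of glycolysis. Slc2a3 and Slc2a5 encode sugar transporters, and Lipe encodes a lipase. Pfkm, the muscle-type phosphofructokinase, had 174.9, 179.9 and 169.8 CPM at 200 mg/kg, against 138, 146 and 143 CPM at 50 mg/kg. Pfkp, the platelet-type enzyme of the same step, had 192, 204 and 193 CPM at 200 mg/kg, against 157, 167 and 164 CPM at 50 mg/kg. Both rose without overlap, by log2 fold changes of 0.30 ± 0.04 and 0.27 ± 0.04 (edgeR adjusted p = 1.6e-07 and 7.4e-07), and both overlap a gene on the opposite strand. Slc2a3, a glucose transporter, and Hk1, a hexokinase, each rose by 0.13 ± 0.02. Eno4, the sperm enolase, fell by 0.20 and Pgam2 by 0.09 on the log2 scale, and Gapdhs, the sperm glyceraldehyde phosphate dehydrogenase, did not pass at 548, 497 and 560.4 CPM against 561, 549 and 554 CPM. The list gave 3 higher and 1 lower in the fit of all 4 groups.

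Of 30 genes of ion transport and cAMP signalling in sperm, 4 rose and none fell, 13.3% against 5.36% of all genes. Atp1a4, the sperm sodium pump, had 1139, 1132 and 1119 CPM at 200 mg/kg, against 981, 1006 and 993 CPM at 50 mg/kg. Adcy10, the soluble adenylyl cyclase that makes cAMP for motility, had 489, 471 and 477 CPM at 200 mg/kg, against 384, 431 and 419 CPM at 50 mg/kg. Their log2 fold changes were 0.19 ± 0.02 and 0.22 ± 0.03 (edgeR adjusted p = 3.8e-07 and 5.5e-06), with no overlap. Pde1a, which breaks cAMP down, and Cftr, a chloride channel, rose by 0.13 ± 0.03 and 0.24 ± 0.07. In the fit of all 4 groups 2 of the list rose, and in that of the 3 dose groups 1. The calls of Pde1a and Cftr were lost in both fits, and that of Adcy10 in the fit of the 3 dose groups. In Atp1a4, Adcy10 and Cftr, 50 mg/kg library 1, which stood apart by gene length, was the lowest of the libraries compared. In Pde1a that library was the highest at 50 mg/kg. Of the 18 CatSper calcium channel genes 2 fell (11.1% against 4.86% of all genes) and none rose, by 0.14 on the log2 scale for C2cd6 and by 0.12 for Catsperb, and the pore gene Catsper1 had a log2 fold change of 0.02 ± 0.04. Neither call was made in the fit of all 4 groups. Of 15 genes listed under testis-specific kinases and phosphatases 3 rose (20% against 5.36% of all genes) and none fell. Tsks, a kinase substrate, rose by 0.16, Sppl2c, a protease, by 0.15 and Tssk2 by 0.10, so that only Tssk2 of these is a kinase. None of the list passed in that fit.

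Transcripts of cytosolic ribosomal proteins and of the mitochondrial genome were mostly lower at 200 mg/kg where they passed the test. Of 75 cytosolic ribosomal protein genes 12 fell and 1 rose, 16.0% lower against 4.86% of all genes, with 64 of 75 below 0 and a median log2 fold change of -0.0749, and in the fit of all 4 groups 4 fell and 1 rose. Rpl17 had 119.4, 110.3 and 113.1 CPM at 200 mg/kg, against 152, 147 and 147 CPM at 50 mg/kg, and Rpsa had 162, 169 and 156 CPM, against 204, 186 and 192 CPM. Rps2 (chr17:24718116-24721929) rose steeply, with 100.2, 108 and 99.6 CPM at 200 mg/kg against 8.23, 7.84 and 7.41 CPM at 50 mg/kg, a fold of 13.1 (log2 3.71 ± 0.07, edgeR adjusted p = 4.76e-35). Rpl26 (chr11:68901583-68906989) fell, by less than Rps2 rose, with 10.2, 10.2 and 12.3 CPM at 200 mg/kg against 77.4, 80.1 and 77.1 CPM at 50 mg/kg, a fold of 7.15 (log2 -2.84 ± 0.07, edgeR adjusted p = 1.04e-30). Ribosomal protein genes have many processed copies in the mouse genome, so reads may have been assigned to or lost to a copy, and the values of these genes are uncertain.

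Mitochondrially encoded transcripts fell in 4 of 12 cases and rose in none, 33.3% against 4.86% of all genes, with a median log2 fold change of -0.152. mt-Nd5, a subunit of complex I, had 746.7, 704.8 and 740.4 CPM at 200 mg/kg, against 983, 867 and 892 CPM at 50 mg/kg, and it overlaps mt-Nd6, which also fell, on the opposite strand. The share of all counts from the mitochondrial genome was 1.28% to 1.33% at 200 mg/kg and 1.35% to 1.45% at 50 mg/kg. In the fit of all 4 groups 1 of these genes fell. Of 77 nuclear genes of oxidative phosphorylation 6 fell and 1 rose, led by Ndufb10 at a log2 fold change of -0.24 ± 0.05. That is 9.09% of them in either direction, under the 10.2% of all genes. Most calls among them were on the lower side, where all genes had 4.86%. In the fit of all 4 groups 1 of them fell, in that of the 3 dose groups none passed (19 had an unadjusted p under 0.05 in the fit of the 6 libraries), and DESeq2 called 2 lower. Of 77 mitochondrial ribosomal genes 2 rose and 2 fell, and of 39 proteasome genes 2 rose and 1 fell, shares of 5.19% and 7.69%, also under that of all genes. Psma8, the germ-cell form of an alpha subunit, had 230.6, 246.9 and 226.4 CPM at 200 mg/kg, against 199.96, 191.5 and 188.3 CPM at 50 mg/kg.

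Of 45 antioxidant genes 4 were higher, 8.89% against 5.36% of all genes, and 7 lower, 15.6% against 4.86%. Gss, glutathione synthetase, had 9.40, 12.7 and 10.4 CPM at 200 mg/kg, against 21.85, 22.95 and 22.6 CPM at 50 mg/kg, a log2 fold change of -1.06 ± 0.10 (edgeR adjusted p = 3.1e-11), and overlaps Acss2 on the opposite strand. Srxn1, the sulfiredoxin that repairs peroxiredoxins, had 37.8, 39.1 and 35.9 CPM at 200 mg/kg, against 58.0, 53.1 and 53.0 CPM at 50 mg/kg. Slc7a11, the cystine importer, went the other way, with 26.0, 24.5 and 22.0 CPM at 200 mg/kg against 14.4, 13.4 and 16.1 CPM at 50 mg/kg (log2 fold change 0.72 ± 0.09, edgeR adjusted p = 8e-08). Mgst1, a microsomal glutathione transferase, fell by 0.36 and Hmox1, heme oxygenase 1, by 0.48 on the log2 scale, the Hmox1 call being lost in 6 of 16 alternatives. The usual markers Nqo1, Sod2, Gpx4 and Cat did not pass, with log2 fold changes of -0.45 ± 0.18, -0.03 ± 0.04, 0.01 ± 0.03 and 0.14 ± 0.10.

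Of the sirtuin and senescence genes 1 of 27 rose and 1 fell, 7.41% against 10.2% of all genes in either direction. Sirt2, a cytoplasmic deacetylase, had 152, 148 and 144 CPM at 200 mg/kg, against 245, 237 and 232 CPM at 50 mg/kg, a log2 fold change of -0.69 ± 0.04 (edgeR adjusted p = 1.1e-18), and overlaps Nfkbib on the opposite strand. Lmnb1, lamin B1, rose by a log2 fold change of 0.30 ± 0.08. Sirt1 had 52.7, 61.9 and 50.5 CPM at 200 mg/kg and 53.9, 56.0 and 56.4 CPM at 50 mg/kg, and Cdkn1a, which encodes the cell cycle inhibitor p21, had 9.98, 10.8 and 10.7 CPM and 11.1, 11.7 and 9.50 CPM, and neither passed. Heat shock and chaperone genes fell in 5 of 41 cases (12.2% against 4.86% of all genes) and rose in 1, led by Hsp90b1 at -0.18 ± 0.03, and none passed in the fit of all 4 groups. The unfolded protein response, whose list also holds Hsp90b1, gave 2 of 25 higher and 3 lower, 20% in either direction against 10.2% of all genes. In the fit of all 4 groups 1 was higher and 1 lower. In that of the 3 dose groups none passed (9 had an unadjusted p under 0.05 in the fit of the 6 libraries). Of 31 apoptosis genes 1 was lower, 3.23%, Casp8 at a log2 fold change of -0.64 ± 0.20 (edgeR adjusted p = 0.029), a call lost in 7 of 16 alternatives, DESeq2 and the fits of 3 and 4 groups among them. None of 23 immediate early genes (3 with an unadjusted p under 0.05) or 22 circadian clock genes (4 such) passed in edgeR, DESeq2 or limma. At Dbp, a clock output gene, the log2 fold change was -0.45 ± 0.15 (edgeR adjusted p = 0.051).

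The largest single differences lay mostly outside these lists. Vgll2 (chr10:52022502-52028471), a TEAD cofactor known from skeletal muscle, had 5 counts in all at 200 mg/kg, against 211 at 50 mg/kg: 0.058, 0.28 and 0 CPM against 4.69, 3.23 and 4.49 CPM. Its log2 fold change was -5.25 ± 0.42 (edgeR adjusted p = 1.43e-12). Of 15 other muscle genes tested 2 fell (13.3% against 4.86% of all genes) and 13 did not pass: Ryr1, the calcium release channel of muscle, with 7.19, 6.99 and 10.1 CPM at 200 mg/kg against 18.4, 20.2 and 18.7 CPM at 50 mg/kg, and Myh3, an embryonic myosin, on few counts, were the 2. Casq1, the muscle calcium store protein, overlapped between the groups. Among 11 genes of calcified tissue Ibsp, bone sialoprotein, fell, with 19.96, 18.73 and 18.6 CPM at 200 mg/kg against 34.7, 27.1 and 34.0 CPM at 50 mg/kg (log2 fold change -0.74 ± 0.08, edgeR adjusted p = 1.1e-08). Spp1, osteopontin, rose by 0.71 ± 0.24 near the threshold (edgeR adjusted p = 0.047), a call lost in 8 of 16 alternatives, and Bmp3 did not pass at 0.44 ± 0.15.

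Among the other falls, Galntl6, which encodes a GalNAc transferase-like protein and overlaps BC030500 on the opposite strand, had 1.22, 1.33 and 1.80 CPM at 200 mg/kg, against 17.5, 17.4 and 14.9 CPM at 50 mg/kg. Pga5, a pepsinogen, had 8.06, 6.22 and 7.16 CPM at 200 mg/kg, against 34.8, 33.0 and 36.6 CPM at 50 mg/kg. Rapgef4, a cAMP-activated exchange factor for Rap, had 2.84, 2.31 and 1.86 CPM at 200 mg/kg, against 8.87, 7.96 and 9.61 CPM at 50 mg/kg. These 3 fell by 3.50 ± 0.16, 2.28 ± 0.09 and 1.92 ± 0.17 on the log2 scale. No library of either group reached the other group's range, which the choice of these genes required. The remaining large falls were those of Cck, a peptide hormone gene, Agap2 and Asap2, which act on Arf GTPases, Rtkn2 and Lonrf2, at log2 fold changes of -1.68 to -1.57, Asap2 overlapping Itgb1bp1 on the opposite strand.

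Among the rises, Cwc22, a spliceosome protein with near copies in the mouse genome, had 104, 93.5 and 98.7 CPM at 200 mg/kg, against 11.8, 12.0 and 13.2 CPM at 50 mg/kg, a log2 fold change of 3.00 ± 0.07 (edgeR adjusted p = 1.1e-32). Sftpb, which encodes the lung surfactant protein B, had 7.02, 5.80 and 6.93 CPM at 200 mg/kg, against 0.257, 0.933 and 0.0522 CPM at 50 mg/kg, or 327 against 20 counts in all. Dapp1, an adaptor of B cell receptor signalling, had 21.93, 21.39 and 21.03 CPM at 200 mg/kg, against 4.82, 5.47 and 4.75 CPM at 50 mg/kg. In each of these the lowest 200 mg/kg library was above the highest at 50 mg/kg, which their choice required. P2rx5, an ATP-gated channel, Lrrc55, a partner of potassium channels, and Adgrd1, an adhesion receptor, rose by log2 fold changes of 2.39 ± 0.22, 2.40 ± 0.28 and 2.07 ± 0.16, Slc9a3r2, a scaffold of ion transporters, by 1.62 ± 0.18, and Tmprss11a, a membrane serine protease, by 3.28 ± 0.43 on 107 against 11 counts. The zinc finger genes Zfp981, Zfp991 and Zfp993 rose by 3.56 ± 0.31, 2.70 ± 0.23 and 1.77 ± 0.25, and belong to a family of similar genes, so that their values are uncertain. The calls of all 28 genes, the 14 largest rises and the 14 largest falls, held in all 16 alternatives.

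**Figure D4:**
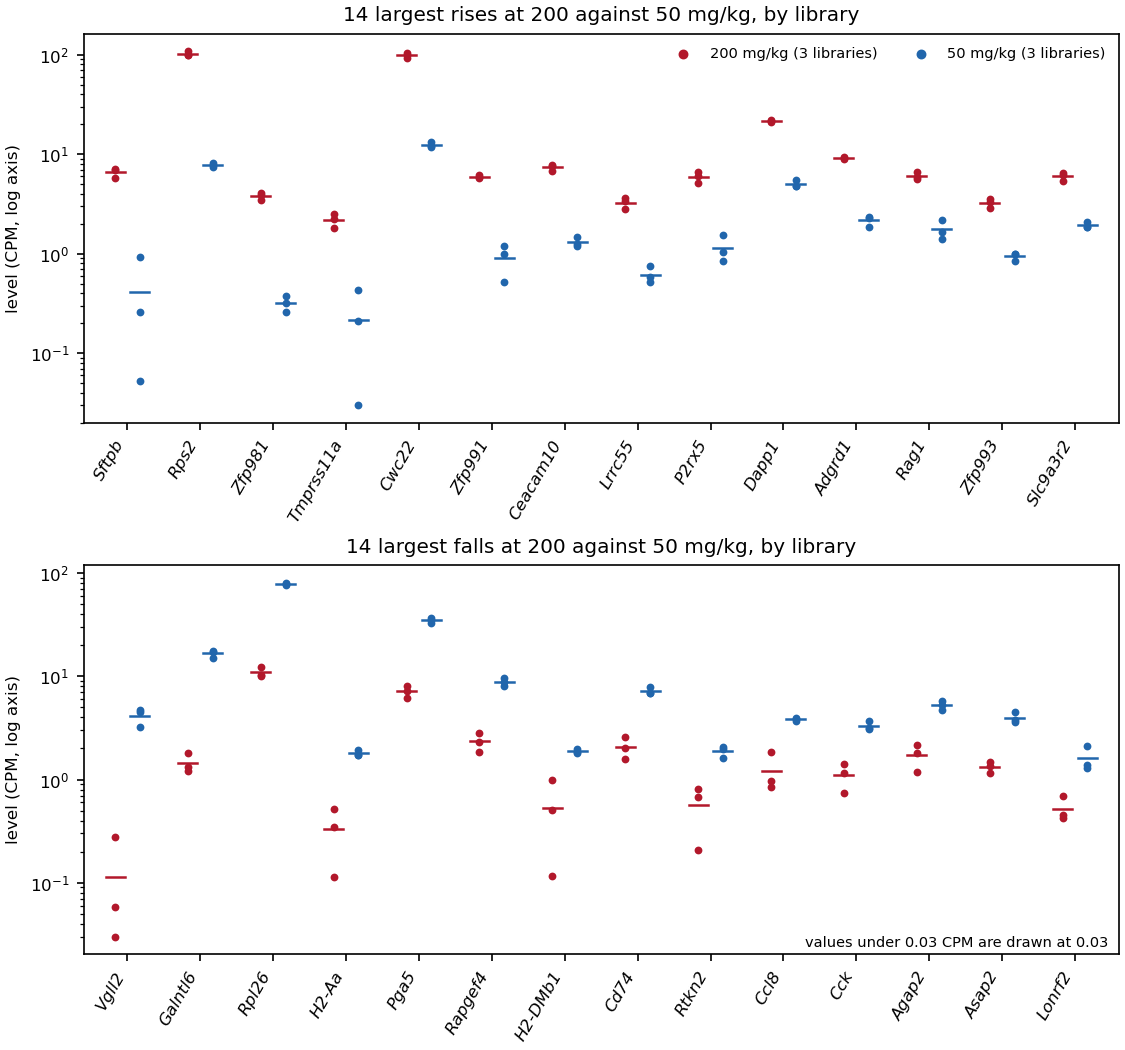
Level in CPM on a log axis in each library for the 14 largest rises (upper panel) and the 14 largest falls (lower panel), with 200 mg/kg in red at the left and 50 mg/kg in blue at the right of each gene, and a bar at each mean. The groups do not overlap in any of the 28, which the choice of these genes required, and Vgll2 is nearly absent at 200 mg/kg.

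The genes took different orders over the 4 groups, in which the 100 mg/kg libraries stand apart by their negative length correlations, whose part in these means was not tested. With CPM scaled over all 12 libraries, Vgll2 averaged 0.0206 CPM in saline, 4.10 CPM at 50 mg/kg, 10.2 CPM at 100 mg/kg and 0.112 CPM at 200 mg/kg, so that the highest dose lay near saline. Pga5 averaged 39.9, 34.5, 0.319 and 7.08 CPM in saline and at 50, 100 and 200 mg/kg. Rps2 averaged 54.7, 7.75, 158.5 and 101.6 CPM in that order, with 50 mg/kg the lowest. Rpl26 averaged 123.5, 77.4, 265.7 and 10.8 CPM, with 200 mg/kg the lowest. Cd74 averaged 3.46, 7.16, 5.54 and 2.04 CPM, so that 50 mg/kg was above saline and 200 mg/kg below it. Star averaged 119.7, 148.1, 83.4 and 105.2 CPM, and Sirt2 averaged 129, 236, 226 and 147 CPM. Among the 14 largest rises the saline mean lay between the means of the 2 doses in 10, below both in 3 and above both in 1. Among the 14 largest falls it lay between them in 8, below both in 4 and above both in 2. These positions are descriptions with no test.

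**Figure D5:**
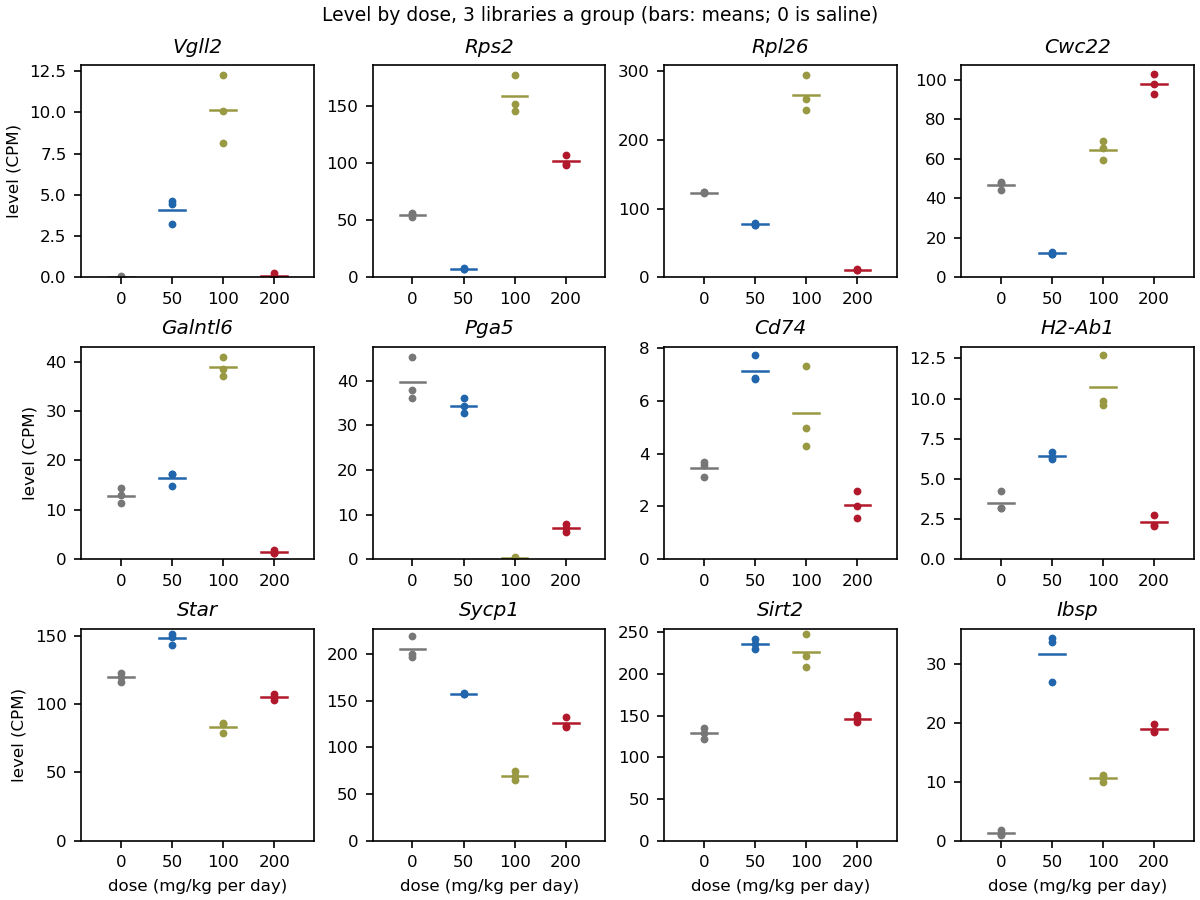
Level in CPM (linear axes from 0, scaled over 12 libraries) of 12 genes by dose in mg/kg per day, where 0 is saline, with 3 libraries a group as points and bars at the means. The genes take different orders across the doses: Vgll2 and Galntl6 peak at 100 mg/kg and are low at 200 mg/kg, Cwc22 is lowest at 50 mg/kg, and Cd74 is highest at 50 mg/kg.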

How the data were processed

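The authors deposited a table of raw counts per gene for 12 libraries (4 groups of 3); its depth per library, which bounds the precision, is given above. Per the labels' protocols, libraries were made with a stranded poly-A kit, and the batch label was 1 for all. Per the submitters' processing notes, Trimmomatic, STAR, featureCounts and DESeq2 and the build mm10 (GRCm38) were used; versions, annotation and strand setting were not given in the sources used here. All 21959 gene IDs were looked up in GENCODE release 21 (mouse) for symbols, positions and overlaps; 108 had no symbol, and they stayed in the fit. The 6 libraries of 200 and 50 mg/kg were fitted alone with edgeR 4.0.16 (R 4.3.3): filterByExpr, TMM factors, robust quasi-likelihood test, Benjamini-Hochberg adjusted p under 0.05. Adjusted p-values in the text are from this test unless another tool is named, and standard errors are the log2 fold change over the root of F. In simulated counts of 15289 genes, changes were planted in 200 genes, none of them among the genes with the lowest counts. The fit recovered 58% of the changes of 1.2-fold and 98% of those of 2-fold, while 10.4% of its calls were false. That is more than the adjusted p threshold of 0.05 aims at. Changes were planted in fewer genes than the 1563 called in the data, where the share of false calls was not measured. The recovery rates do not cover low genes such as H2-Aa.

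Named genes were the 14 largest rises and 14 largest falls among called, non-overlapping genes with a symbol other than a predicted-gene or clone name and a mean of at least 1 CPM, the 2 to 4 members of each list with the smallest p, and a fixed set; other members named were chosen after their values were seen. The members and the 42 lists were chosen with earlier results of these data known. Of the 1406 listed symbols 22 were not matched. Alternatives were DESeq2 1.42.0, limma 3.58.1, other scalings and filters, fits of 3 and 4 groups, a length term, a replicate block and leaving out each library.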

Additional observations from a re-analysis of the deposited data

How the results depend on the processing

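The count of 1563 genes moved with the tool and with the libraries in the fit. DESeq2 called 875 (465 higher, 410 lower), 860 of them among the 1563. The fit of all 4 groups called 792 (398 higher, 394 lower) and that of the 3 dose groups 605 (286 higher, 319 lower). Leaving out 1 library gave 984 to 1626 genes, 490 to 847 higher and 481 to 779 lower, and 112 to 138 of at least 2-fold. The 120 genes of at least 2-fold became 186 with no count filter, and testing against a minimum fold gave 214 genes beyond 1.2-fold and 71 beyond 1.5-fold. Replicate numbers were taken from the sample titles, since the descriptions of the treated groups number some replicates differently. These numbers did not pair the samples (correlations of same-numbered deviations 0.0131, 0.00938 and -0.000208). With a replicate block 1579 genes were called, 822 higher and 757 lower, and 123 of at least 2-fold. Of 144 named genes past the threshold, 78 kept sign and call in all 16 alternatives, 66 lost the call in at least 1, and 0 reversed. Of the 69 not past it, 9 changed sign and 15 gained a call under some alternative. With limma Casq1 was at -0.00123 and Gpx4 at -0.00206, and Gpx4 was at -0.00206 with library size alone. With a library left out, the log2 fold change ran at Casq1 over -0.0987 to 0.193, at Gpx4 over -0.028 to 0.0475, at Sirt1 over -0.106 to 0.0405, at Cdkn1a over -0.117 to 0.0363, at Hsd17b3 over -0.0265 to 0.0761, at Insl3 over -0.484 to 0.0589, at Catsper1 over -0.0135 to 0.0408, at Ldhc over -0.00507 to 0.0307 and at Hbb-bs over -0.0161 to 0.153. Of 672 list medians under alternatives 69 moved, in 27 lists. The causes were not tested. At this depth genes such as Tnf, Il6 and Ciita could not be compared, and low genes such as H2-Aa rest on under 100 counts in 50 mg/kg libraries together.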

Other observations

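Some differences lay close together on the genome. In windows of 2 Mb (GRCm38), the stretch of chromosome 4 from 146 to 148 Mb held 17 tested genes, 9 of them called and 5 by at least 2-fold: Zfp979, Zfp981, Zfp991 and Zfp993 were higher and Zfp984 lower at 200 mg/kg. Chromosome 17 from 34 to 36 Mb, which holds the MHC, had 19 of 77 called, and its 5 genes of at least 2-fold, H2-Aa, H2-Ab1, H2-Eb1, H2-DMb1 and H2-DMb2, were all lower. Chromosome 14 from 4 to 6 Mb had 7 of 14 called, 5 by at least 2-fold, all predicted genes. Slc9a3r2 (chr17:24639286-24650327) and Rps2 (chr17:24718116-24721929), both higher, are near each other. On chromosome X 4.61% of tested genes were called and on chromosome 9 6.56%, against 14.1% on chromosome 17, and none of 39 on chromosome Y. These windows and genes were picked after their values were seen, and neighbours with similar sequence can share reads.

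The next 4 genes were also picked after their values were seen. Ahcy, which hydrolyses S-adenosylhomocysteine, averaged 21.8 ± 2.85 CPM at 200 mg/kg and 7.81 ± 0.18 CPM at 50 mg/kg, and Cth, which releases cysteine from cystathionine, averaged 3.89 ± 0.34 and 1.87 ± 0.16 CPM (SD, n = 3 each). Cbs, which makes cystathionine from homocysteine, averaged 0.847 ± 0.070 CPM at 200 mg/kg and 2.22 ± 0.20 CPM at 50 mg/kg. The log2 fold changes were 1.47 for Ahcy, 1.06 for Cth and -1.38 for Cbs, all past the threshold. Ccr7, a receptor that guides antigen-presenting cells to lymph nodes, was lower too, at 0.580, 0.280 and 0.338 CPM in 200 mg/kg libraries and 1.29, 1.24 and 1.10 CPM in 50 mg/kg libraries, a log2 fold change of -1.55 ± 0.40.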
